A study of Mus musculus with 24 samples.

Results

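The mRNAs of the translation elongation factors were measured in the brain and liver of mice lacking single phenylalanine tRNA genes. The set held 9 genes, named by symbol and chosen with earlier results of these data known: Eef1a1, Eef1a2, Eef1b2, Eef1d, Eef1g, Eef2, Eef2k, Eif5a and Eif5a2. Each was found once, by its Ensembl identifier, among the 55469 genes of the brain table and again in the liver table. RNA sequencing covered 24 samples, with 3 replicates (A, B and C) of each of 4 genotypes in each tissue. The genotypes were wild type (WT), tRNA-Phe-GAA-1-1-/- (written below as tRNA-Phe-1-1-/-), tRNA-Phe-GAA-2-1-/- (below, tRNA-Phe-2-1-/-), and lastly tRNA-Phe-GAA-3-1-/- (below, tRNA-Phe-3-1-/-). The study's methods describe male mice on a C57BL/6N background, age- and littermate-matched and on normal chow. Its reporting summary gives an age of 10 weeks and results from both sexes. The sample titles give neither sex nor age. Each knockout line was homozygous for a deletion of 1 of the 7 tRNA-Phe genes, made with one CRISPR guide for the whole gene family, separated by backcrossing and bred for at least 10 generations. RNA was isolated from snap-frozen tissue, and the study's methods call it total brain and liver RNA. The methods also state at least 3 mice per group, from different litters, but the labels do not tie a letter to an animal, so p-values measure the spread between these samples.

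Elongation is the part of translation in which the ribosome adds one amino acid after another. Eukaryotic elongation factor 1A, made from Eef1a1 or its paralog Eef1a2, carries every aminoacyl-tRNA, phenylalanyl-tRNA included, to the ribosome, and the exchange factor formed by Eef1b2, Eef1d and Eef1g reloads it with GTP. Eef2 then moves the ribosome by a codon, the kinase Eef2k switches Eef2 off by phosphorylation, and eIF5A, made by Eif5a and its paralog Eif5a2, helps at sequences where peptide bonds form slowly. Many of these mRNAs carry a 5' terminal oligopyrimidine (TOP) tract, which couples their translation to growth signals. In the adult, Eef1a2 is known as the form of neurons and striated muscle.

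The deposited values were normalised counts, estimated read counts that the authors divided by a size factor per sample, tissue by tissue. Whole reads could be recovered from them and gave 30365760 to 46225360 reads per brain sample and 32276896 to 51584522 per liver sample. The tissue labels held against defining markers: the neuronal Snap25 had 32419 to 67237 normalised counts in brain samples and 0 to 3.38 in liver samples, and the hepatocyte gene Alb had 1308113 to 2477751 in the liver and 3.23 to 877 in the brain. Brain samples differed in their cell content. Summed over 7 oligodendrocyte markers, the normalised counts were 119171 to 142105 in WT, 45425 to 86462 in tRNA-Phe-1-1-/-, 65921 to 157535 in tRNA-Phe-2-1-/- and 81811 to 174311 in tRNA-Phe-3-1-/-, and summed over 5 choroid plexus markers they ran from 181 to 52598. In bulk tissue, fewer cells of a type and less RNA per cell cannot be told apart.

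The members lie on 9 chromosomes (RefSeq, GRCm38.p6). Eef1a1 spans chromosome 9, 78478453 to 78481724, and Eef1a2 chromosome 2, 181141758 to 181157015. The exchange factor genes Eef1b2, Eef1d and Eef1g lie at chromosome 1, 63176831 to 63180486, chromosome 15, 75894796 to 75909784, and chromosome 19, 8967041 to 8978180. Eef2 lies at chromosome 10, 81176631 to 81182509, its kinase Eef2k at chromosome 7, 120842642 to 120907219, Eif5a at chromosome 11, 69916712 to 69921958, and Eif5a2 at chromosome 3, 28781032 to 28798846.

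Both pairs of paralogs encode closely related proteins through different codons, and such differences help to tell their reads apart. Of aligned residues, 92.4% were the same between Eef1a1 and Eef1a2 and 83.0% between Eif5a and Eif5a2. The first 60 codons of Eef1a1 and Eef1a2 (coding sequence of the GENCODE vM39 canonical transcripts, with phenylalanine codons in capitals) are shown because the tissue difference below turns on this pair.
Eef1a1: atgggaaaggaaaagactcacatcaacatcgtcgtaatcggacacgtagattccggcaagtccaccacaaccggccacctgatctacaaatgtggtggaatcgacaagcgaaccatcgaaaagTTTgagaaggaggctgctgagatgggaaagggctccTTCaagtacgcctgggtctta
Eef1a2: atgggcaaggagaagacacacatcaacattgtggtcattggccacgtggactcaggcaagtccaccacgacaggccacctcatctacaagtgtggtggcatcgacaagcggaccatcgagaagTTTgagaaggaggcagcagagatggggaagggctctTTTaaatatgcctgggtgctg
The 2 stretches of 180 bases differ at 28 bases and at 0 of 60 encoded residues. Each holds 2 phenylalanine codons, the second of which is TTC in Eef1a1 and TTT in Eef1a2. Over the whole coding sequence, 81.0% of aligned bases were the same between these paralogs and 75.2% between Eif5a and Eif5a2.

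The same holds around the lysine codon (in capitals) whose product is turned into hypusine, the modified residue found in eIF5A alone. Codons 38 to 62 are shown, since in the comparisons with WT below the members with an unadjusted p under 0.05 were Eif5a2 in the brain and Eif5a in the liver.
Eif5a: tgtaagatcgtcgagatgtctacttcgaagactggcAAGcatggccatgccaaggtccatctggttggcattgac
Eif5a2: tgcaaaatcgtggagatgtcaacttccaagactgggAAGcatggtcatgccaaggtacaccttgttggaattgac
They differ at 11 of 75 bases and at 0 of 25 encoded residues. For Eef2, the codon of the threonine that Eef2k phosphorylates (codon 57 from the start codon) and that of the histidine that becomes diphthamide (codon 715) are shown in capitals. Of the 14 tested modifying enzymes described below, 7 act in making diphthamide, and the list of regulators concerns Eef2k and Eef2.
Eef2 codons 45 to 69: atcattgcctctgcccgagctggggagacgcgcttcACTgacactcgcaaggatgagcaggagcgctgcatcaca
Eef2 codons 703 to 727: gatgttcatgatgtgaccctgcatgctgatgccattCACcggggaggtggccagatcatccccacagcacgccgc

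The members differed in phenylalanine content. Eef1g, the structural subunit of the exchange complex, had 32 phenylalanine codons among 437 codons (7.32%), which put it above 92.9% of 21487 canonical coding sequences. At the other end Eif5a2 had 3 among 153 (1.96%, above 11.2%), and all 3 were TTC. The carriers Eef1a1 and Eef1a2 had 3.03% and 2.81%, and Eef2 had 4.08%. Against a median of 3.74% over all coding sequences, 2 of the 9 members, Eef1g and Eef2, were richer. The share of TTC among a member's phenylalanine codons ran from 20.0% in Eef1b2 to 100.0% in Eif5a2, with 54.6% over all coding sequences.

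The widest differences among the members lay between the tissues. Eef1a2 ranked 184 of all genes in the brain by mean normalised count and was nearly missing from the liver, and Eif5a2 was split in the same way, while their paralogs Eef1a1 and Eif5a were abundant in both. The tables of the tissues were normalised separately, so levels across them are given as CPM, the recovered reads of a gene when each library is scaled to 1000000 reads, side by side and without a test. Levels between genes are given per 1000 bases of coding sequence.

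For Eef1a2, the brain libraries had 13475 to 20740 reads each, or 401 to 536 CPM. In the liver 8 of 12 libraries had 0 reads and the highest had 2. Over all liver libraries there were 6 reads of 512542712, which is 0.0117 CPM (95% Poisson interval 0.0043 to 0.0255). The ratio of brain to liver was 40971, with a counting interval of 18823 to 111642 that covers counting error only. Taken against a floor of 3 reads in a liver library, brain Eef1a2 was at least 5160-fold higher. Levels at or under 3 reads per library cannot be ordered between genotypes, so Eef1a2 was left out of the tests of levels in the liver. Striated muscle, which also uses Eef1a2, was nearly missing from the liver samples too: its 9 markers summed to 13.7 to 90.9 normalised counts in WT and to 0.801 to 6.59 in the knockouts, and their part in the few Eef1a2 reads was not tested.

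The carrier used by both tissues, Eef1a1, was the most abundant member everywhere. Its mean level was 1849 CPM for brain (1631 to 2250 over the 12 libraries) and 3953 for liver (3619 to 4376), 2.14 times the brain level, and no library of one tissue reached the range of the other. By mean normalised count it ranked 17 of all genes in the brain and 26 in the liver.

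Eif5a2 had 71.9 to 117 CPM in brain libraries and 0.311 to 0.777 in liver libraries, a ratio of 184 between the means. Between 14 and 34 reads lay behind each liver value, so they are imprecise. Its paralog Eif5a had 132 to 153 CPM (brain) and 133 to 179 (liver), and these ranges overlap.

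Eef2k was also a gene of the brain more than of the liver, with 29.0 to 39.2 CPM against 6.97 to 14.4, a ratio of 3.08, and the libraries did not overlap. Its substrate Eef2 had 850 to 982 (brain) and 1000 to 1257 (liver). For each 100 reads of Eef2 there were 2.96 to 4.38 reads of Eef2k in a brain library and 0.617 to 1.26 in a liver library.

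Among the exchange factor subunits, Eef1g was higher in every brain library (165 to 212 CPM) than in any liver library (99.6 to 151). The ranges of the nucleotide exchange subunit Eef1b2 (62.1 to 85.7 and 77.6 to 110) and of the other exchange subunit, Eef1d (43.5 to 59.0 and 46.6 to 53.6), overlapped between the tissues.

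**Figure D1:**
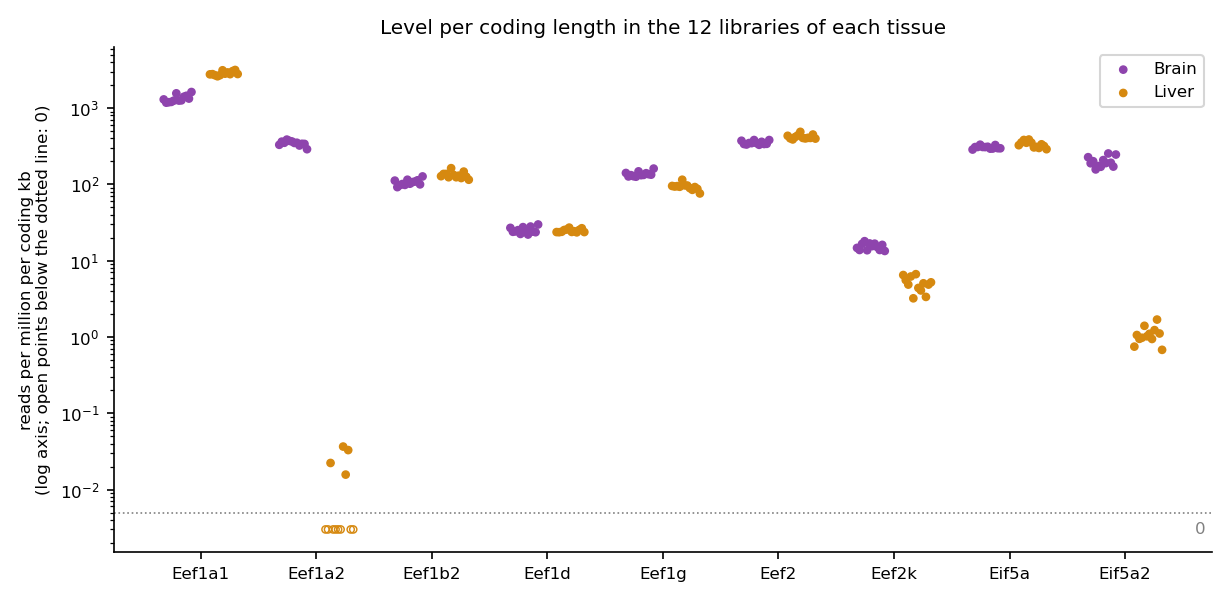
Level of each member in CPM per 1000 coding bases (log axis), with the 12 brain libraries in purple and the 12 liver libraries in orange, and open points for libraries at 0. Eef1a2 has 8 liver libraries at 0 and Eif5a2 is lower in every liver library than in any brain library, while Eef1a1 lies higher in the liver.

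Per coding length, the order of mean levels in the brain was Eef1a1 (1334 CPM per 1000 coding bases), Eef2 (352), Eef1a2 (347), Eif5a (306), Eif5a2 (198), Eef1g (137), Eef1b2 (106), Eef1d (25.2) and Eef2k (15.4). The ranges over 12 libraries overlapped between Eef2 and Eef1a2, Eef1a2 and Eif5a, Eif5a2 and Eef1g, and Eef1g and Eef1b2. These genes share their libraries, and overlapping ranges do not show that neighbours were equal. Within each brain library, Eif5a2 was above Eef1g and Eef1g above Eef1b2 per coding length. In the liver the order was Eef1a1 (2852), Eef2 (420), Eif5a (334), Eef1b2 (132), Eef1g (92.9), Eef1d (24.7), Eef2k (4.99), Eif5a2 (1.07) and Eef1a2 (0.00896), where Eef1b2 and Eef1g alone overlapped as neighbours. These orders rest in part on the length used. Per 1000 bases of the whole canonical transcript, which has 13742 bases for Eef1a2 and 5091 for Eif5a2 in the later annotation, Eef1a2 had 35.0 CPM and Eif5a2 17.9 in the brain, and they ranked 6 and 7 of 9 in place of 3 and 5. Eif5a, Eef1g and Eef1b2 moved up to ranks 3, 4 and 5 there. In the liver Eef1g (65.3 CPM) then ranked 4 and Eef1b2 (46.0) 5, the reverse of their order per coding length.

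Together the 9 mRNAs took 0.354% to 0.427% of the reads of a brain library and 0.513% to 0.604% of a liver library. Near-identical copies, which can take or lend reads when a quantifier divides them, are common in this family. With at least 90% identity over at least 300 bases of the coding sequence, Eef1a1 had 15 copies, all annotated as pseudogenes, Eef1g had 5, Eef2 had 4, and Eef1d and Eif5a had 2 each. Eef1a2, Eif5a2, Eef1b2 and Eef2k had 0. The copies of Eef1a1 held 0.234% of the reads of gene and copies together in the brain and 0.339% in the liver. For Eef1g the shares were 2.13% and 2.31%, nearly all in the pseudogene Gm4366, and for Eef2 2.80% and 1.64%, nearly all in Sfi1, a gene of its own with a transcript that shares sequence with Eef2.

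The first question of the design was whether losing a tRNA-Phe gene altered these mRNAs in the brain. No member passed the threshold in any knockout. The lowest fold was that of Eif5a2 in tRNA-Phe-1-1-/-, at 0.804 of WT, and the highest that of Eef1a1 in tRNA-Phe-3-1-/-, at 1.16 times WT, and neither was called. The test was limma's, on the log2 of the normalised count plus 1, in a model of all 12 samples of a tissue, with p-values adjusted by the Benjamini-Hochberg method over all 19228 genes tested and a threshold of 0.05. The 3 knockout groups share their WT samples.

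In tRNA-Phe-1-1-/- brain, 0 of 9 members were called by limma, as by edgeR and DESeq2 on the recovered reads, beside 1.05% of all genes. One member had an unadjusted p under 0.05, where 15.9% of all genes did, and one did not overlap between the groups, where 25.2% of all genes did not. That member was Eif5a2. It had 2500, 2864 and 2699 normalised counts in replicates A, B and C of tRNA-Phe-1-1-/- and 3583, 3165 and 3281 in WT. Every knockout sample was below every WT sample. The log2 fold change was -0.32 ± 0.12 (SE), with a 95% interval of -0.59 to -0.04, and limma's adjusted p was 0.24 (unadjusted p = 0.027, limma). Over the alternatives the log2 fold change stayed between -0.36 and -0.26, with adjusted p of 0.106 to 0.435. The sums of oligodendrocyte markers, given above, were lower in the same samples without overlap, as were those of 5 choroid plexus markers (191 to 589 against 633 to 13102) and 5 erythroid markers (7588 to 9630 against 15395 to 28255), and their part was not tested. No single marker of these lists was called. Eif5a in those samples had 5322, 5127 and 4938 normalised counts against 4544, 5184 and 5079 in WT, with overlapping groups.

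In tRNA-Phe-2-1-/- brain, 0 of 9 members were called by limma (0% of all genes), by edgeR or by DESeq2, and none had an unadjusted p under 0.05, where 5.57% of all genes did. The log2 fold changes were no larger than 0.06 in size, and none of the members was without overlap, where 11.4% of all genes were. In this line Eef1a1 had 60511, 61195 and 66567 normalised counts, and Eef2 had 31073, 29734 and 31742.

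In tRNA-Phe-3-1-/- brain, 0 of 9 members were again called by limma (0% of all genes), edgeR and DESeq2, and none had an unadjusted p under 0.05, where 12.3% of all genes did. One member, Eef1a1, did not overlap between the groups, beside 16.4% of all genes. It had 69964, 64449 and 74584 normalised counts, against 61904, 59442 and 58794 in WT. All knockout samples were higher, and replicate C the highest of them. The log2 fold change was 0.21 ± 0.10 (95% interval -0.01 to 0.44), with an adjusted p of 0.439 by limma. Its paralog Eef1a2 had 16474, 16449 and 13306 against 15783, 18362 and 17311, so that only replicate C lay below the WT range, and the log2 fold change was -0.16 ± 0.09 (adjusted p = 0.537, limma). Without replicate C the values were 0.16 for Eef1a1 and -0.06 for Eef1a2. The 10 neuronal markers summed to 114123 to 166288 normalised counts in these samples and to 161274 to 190612 in WT, the 6 astrocyte markers to 87354 to 105577 against 107191 to 138308, and their part in both values was not tested.

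**Figure D2:**
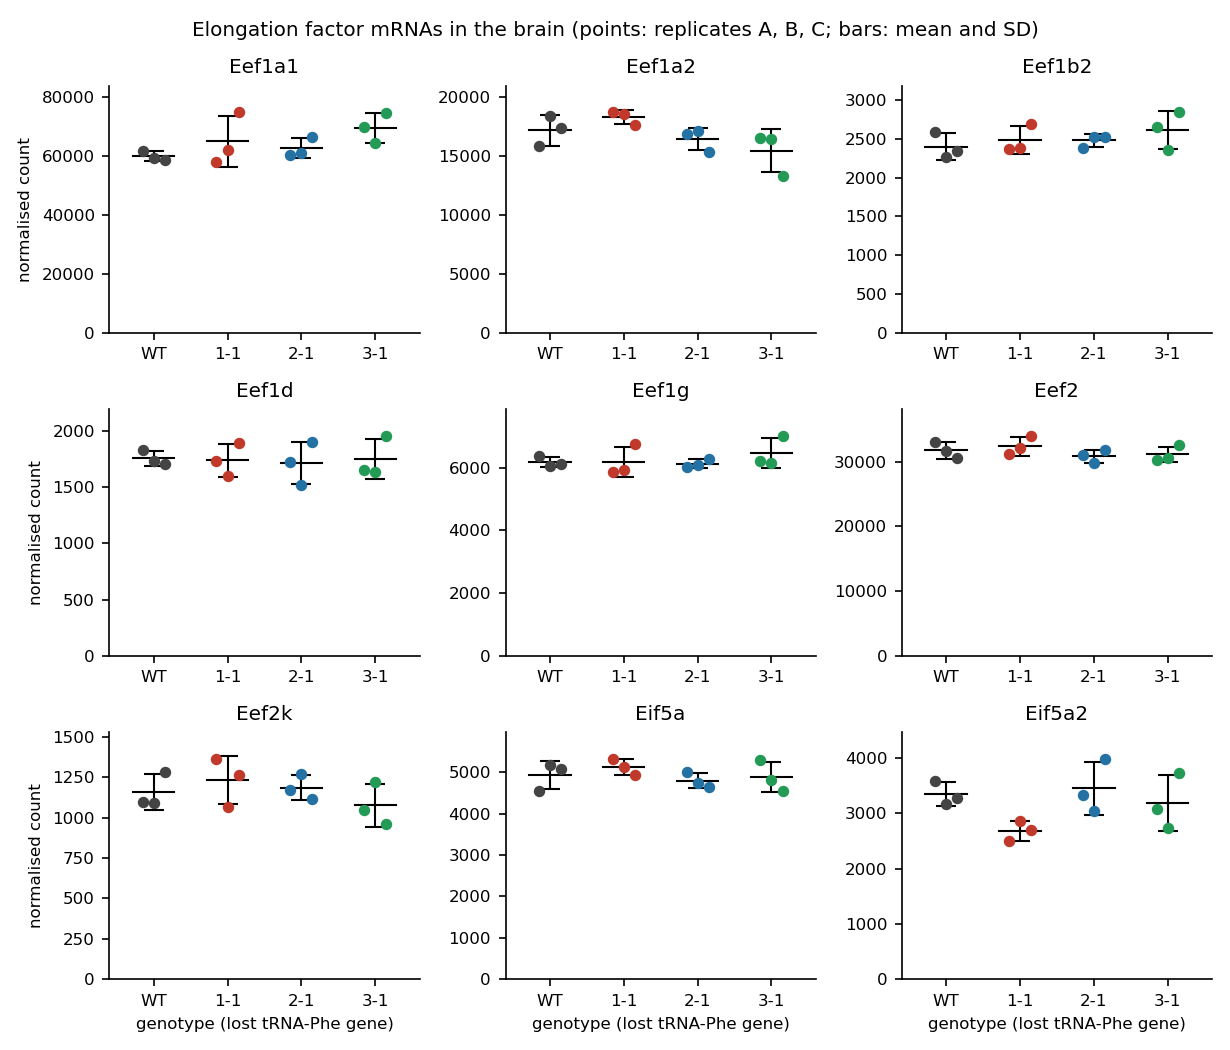
Normalised counts of each member in the brain, by genotype (WT and the lost tRNA-Phe gene), with a point for each of 3 replicates and bars for the mean and SD. Eif5a2 in the 1-1 group (2500 to 2864) lies below WT (3165 to 3583) and Eef1a1 in the 3-1 group (64449 to 74584) above WT (58794 to 61904), while the other panels overlap with WT.

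For the remaining brain members, the ranges over all 12 libraries were narrow. Eef2 ran from 29734 to 34019 normalised counts, 1.14 times from lowest to highest. Eif5a ran from 4544 to 5322 and Eef1g from 5860 to 7018. The kinase Eef2k ran from 963 in tRNA-Phe-3-1-/- replicate C to 1364 in tRNA-Phe-1-1-/- replicate A. A p that misses the threshold does not show that levels were equal, but the intervals limit how far they could have moved: leaving Eif5a2 aside, the 24 intervals of the other 8 members against WT all lay between -0.37 and 0.44 on the log2 scale, that is between 0.775 and 1.35 times WT.

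Between the knockout lines in the brain, limma called 0 of 9 members in each of 3 comparisons, as did edgeR and DESeq2. Of all genes it called 0.53% when tRNA-Phe-1-1-/- was compared with tRNA-Phe-2-1-/-, 2.11% for its comparison to tRNA-Phe-3-1-/-, and 0% between these latter 2 lines. At an unadjusted p under 0.05 there were 1, 1 and 0 members in the same order, and 13.7%, 19.5% and 9.93% of all genes. Eif5a2 was lower in tRNA-Phe-1-1-/- than in every sample of tRNA-Phe-2-1-/- (3330, 3050 and 3986), by a log2 difference of -0.36 ± 0.12 (adjusted p = 0.227, limma). Eef1a2 was higher in every sample of tRNA-Phe-1-1-/- (18665, 18542 and 17587) than in any of tRNA-Phe-3-1-/-, by 0.25 ± 0.09 (adjusted p = 0.177, limma), and than in any of tRNA-Phe-2-1-/- (16858, 17070 and 15315), by 0.16 ± 0.09 (adjusted p = 0.514, limma). Without overlap were 2, 1 and 0 members in the 3 comparisons, where 20.8%, 23.5% and 12.7% of all genes were. Over the 4 genotypes together, limma's F-test called 0 of 9 members, as did edgeR's, and 0.634% of all genes, with the lowest adjusted p at 0.304 by limma, for Eif5a2. None had an unadjusted p under 0.05 in it, where 17.6% of all genes did.

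The shares of the paralogs show the same values within each library, where a scaling of the whole library cancels. Eef1a2 made up 22.2% ± 1.70 (SD, n = 3) of the reads of Eef1a1 and Eef1a2 together in WT brain, 22.1% ± 2.76 in tRNA-Phe-1-1-/-, 20.8% ± 1.79 in tRNA-Phe-2-1-/- and 18.2% ± 2.71 in tRNA-Phe-3-1-/-. Eif5a2 made up 40.4% ± 3.25 of the reads of Eif5a and Eif5a2 in WT, 34.4% ± 2.11 in tRNA-Phe-1-1-/-, 41.7% ± 3.83 in tRNA-Phe-2-1-/- and 39.4% ± 4.96 in tRNA-Phe-3-1-/-. These are shares of reads, not of mRNA molecules, and they depend on length. Per coding length the WT means were 22.2% for Eef1a2 and 40.6% for Eif5a2. Per length of the whole canonical transcript they were 3.6% and 15.5%. The share of Eif5a2 was below every WT sample in each tRNA-Phe-1-1-/- sample (two-sided exact permutation p = 0.1, the smallest that 3 samples against 3 can give, and 0.771 after adjustment over the 18 tests of shares). The 18 tests covered the shares of Eef1a2, of Eif5a2 and of all members together, for each knockout in each tissue. They include the Eef1a2 share in the liver, which rests on at most 2 reads per library and cannot be ordered. No other brain share was without overlap. The difference in the Eef1a2 share between tRNA-Phe-3-1-/- and WT was -4.04 percentage points (exact permutation p = 0.2, two-sided, 0.771 after adjustment). In the liver the share of Eif5a2 was between 0.227% and 0.499%, and it was higher in every tRNA-Phe-2-1-/- sample (0.301% to 0.406%) than in WT (0.227% to 0.297%), on 14 to 34 reads of Eif5a2 per library (two-sided exact permutation p = 0.1, and 0.771 after adjustment).

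**Figure D3:**
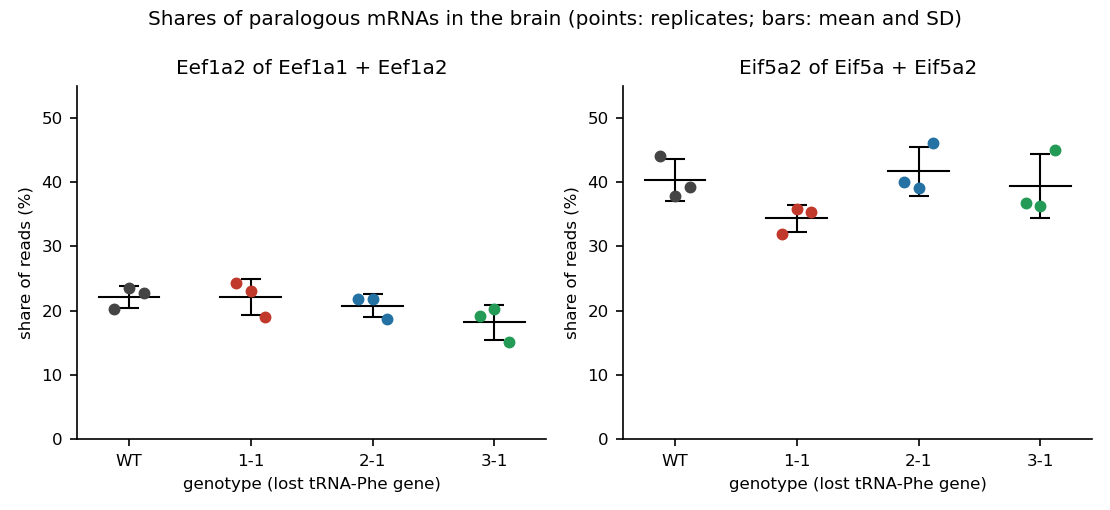
Share of reads, in percent, of Eef1a2 among Eef1a1 and Eef1a2 (left) and of Eif5a2 among Eif5a and Eif5a2 (right) in the brain, by genotype, with points for 3 replicates and bars for the mean and SD. The Eif5a2 share in the 1-1 group is 32.0% to 35.8%, below the 37.9% to 44.1% of WT, and the Eef1a2 share is lowest in a sample of the 3-1 group, at 15.1%.

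The same comparisons were made in the liver, where far more genes were called in tRNA-Phe-1-1-/- than in any other group. The elongation factors were not among them. Eif5a came nearest to the threshold, with lower mean values in these 2 groups, tRNA-Phe-2-1-/- and also tRNA-Phe-3-1-/-, than in WT or tRNA-Phe-1-1-/-. Of the 9 members 8 passed the filter of a mean of at least 10 normalised counts (15856 genes did), Eef1a2 being the other.

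In tRNA-Phe-1-1-/- liver, 0 of 8 members were called by limma, and by edgeR and DESeq2, beside 17.3% of all genes, and none had an unadjusted p under 0.05, where 31.8% of all genes did. Eef2 had 45260, 45024 and 52387 normalised counts, against 47638, 43917 and 41848 in WT, which overlap. Eef1a1 had 152085, 149207 and 180654 against 163848, 163927 and 156389, with replicate C above and replicates A and B below all WT samples. The median log2 fold change of the members was 0.03, and that of all genes was -0.01 with a median size of 0.27. One member was without overlap, Eef1d (2094, 2018 and 2233 against 2002, 1989 and 1979), by 0.09 ± 0.07, where 34.8% of all genes were.

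In tRNA-Phe-2-1-/- liver, 0 of 8 members were called by limma, beside 0.132% of all genes, and 1 had an unadjusted p under 0.05 (14.9% of all genes). This was Eif5a, with 5823, 6121 and 5873 normalised counts, against 6443, 6960 and 7385 in WT. All 3 knockout samples were below all WT samples. Of all genes, 25.4% had groups that did not overlap. The log2 fold change was -0.22 ± 0.07 (95% interval -0.37 to -0.07, 0.858 of WT), with an adjusted p of 0.2 by limma and 0.215 by edgeR. DESeq2 on the recovered reads gave an adjusted p of 0.0473, under the threshold. Over all alternatives the adjusted p ran from 0.0473 to 0.572, the highest without WT replicate C, where the log2 fold change was -0.17. The 9 hepatocyte markers also summed to less in these samples, at 3010335 to 3246348 normalised counts against 3377157 to 4137785 in WT, and their part was not tested.

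In tRNA-Phe-3-1-/- liver, 0 of 8 members were called by limma, edgeR and DESeq2 (0.883% of all genes by limma), and none had an unadjusted p under 0.05, where 16.1% of all genes did. The groups did not overlap for 3 members, beside 19.9% of all genes. Eef1a1 (177709, 183699 and 175242) and Eef1d (2101, 2210 and 2120) were higher than every WT sample, and Eef1g (5079, 4802 and 4508 against 5341, 5222 and 5206) was lower. Their log2 fold changes were 0.15 ± 0.12, 0.11 ± 0.07 and -0.13 ± 0.08, with adjusted p of 0.582, 0.459 and 0.443 by limma. The 5 erythroid markers were also higher here without overlap, at 26855 to 33318 normalised counts against 19732 to 26031 in WT, and their part was not tested. Eif5a had 6510, 6176 and 6037, and its range overlapped that of WT through replicate A (log2 fold change -0.15 ± 0.07, adjusted p = 0.325, limma).

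**Figure D4:**
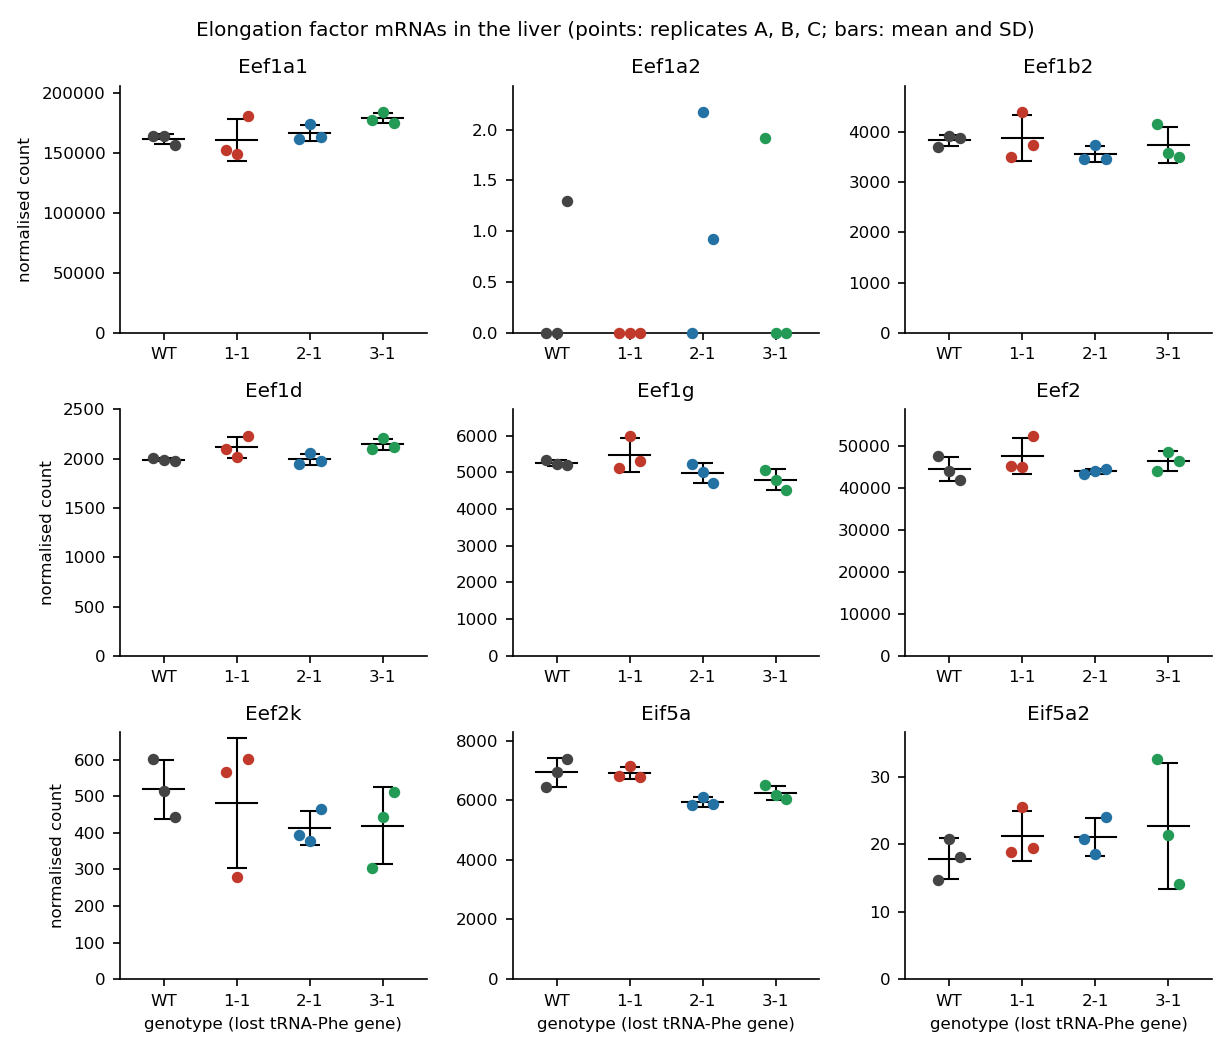
Normalised counts of each member in the liver, by genotype, with a point for each of 3 replicates and bars for the mean and SD (none for Eef1a2, which had at most 2.17). Eif5a in the 2-1 group (5823 to 6121) lies below WT (6443 to 7385), and Eef2k spreads most among the well-counted members, from 278 to 602.

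Liver Eef2k varied far more between replicates than the other well-counted members. WT replicates had 602, 513 and 442 normalised counts, tRNA-Phe-1-1-/- had 566, 278 and 602, tRNA-Phe-2-1-/- had 394, 378 and 465, and tRNA-Phe-3-1-/- had 305, 443 and 511. All groups overlap, and the lowest sample is tRNA-Phe-1-1-/- replicate B. The highest was 2.17 times the lowest, with 315 to 616 reads behind the values, compared with 1.25 times for Eef2. The log2 fold changes against WT were -0.18, -0.33 and -0.33 with an SE of 0.27 each, and without replicate B the first of them was 0.18. Leaving out Eef2k and the poorly counted Eif5a2, the 18 liver intervals of the other 6 members lay between -0.37 and 0.41, that is between 0.772 and 1.33 times WT.

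Comparing the knockout livers with each other, limma called 0 of 8 members in the 3 comparisons. Of all genes it called 15.9% when tRNA-Phe-1-1-/- was compared with tRNA-Phe-2-1-/-, 16.1% for its comparison to tRNA-Phe-3-1-/-, and 0% between these latter 2 lines. At an unadjusted p under 0.05 there were 1, 1 and 0 members in the same order, and 31.1%, 31.3% and 6.68% of all genes. The member was Eif5a in the first comparison and Eef1g in the second. Eef1g was higher in tRNA-Phe-1-1-/- than in tRNA-Phe-3-1-/- without overlap, by 0.19 ± 0.08 (adjusted p = 0.126, limma). Eif5a came closest to the threshold. It had 6808, 7135 and 6776 normalised counts in tRNA-Phe-1-1-/-, above all samples of both other lines. Against tRNA-Phe-2-1-/- the log2 difference was 0.22 ± 0.07 (95% interval 0.06 to 0.37) and the adjusted p was 0.0563 by limma, 0.0683 by edgeR and 0.0144 by DESeq2. A filter at a mean of 50 in place of 10 also took it under the threshold, at 0.047 by limma. Over the 4 genotypes, limma's F-test gave Eif5a an adjusted p of 0.0833, the lowest of the members, and called 0 of 8, as did edgeR's, beside 17% of all genes. Eif5a alone had an unadjusted p under 0.05 in it, where 34.3% of all genes did. Groups without overlap numbered 2 members in each of the 3 comparisons, where 38%, 31.8% and 12.2% of all genes were.

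**Figure D5:**
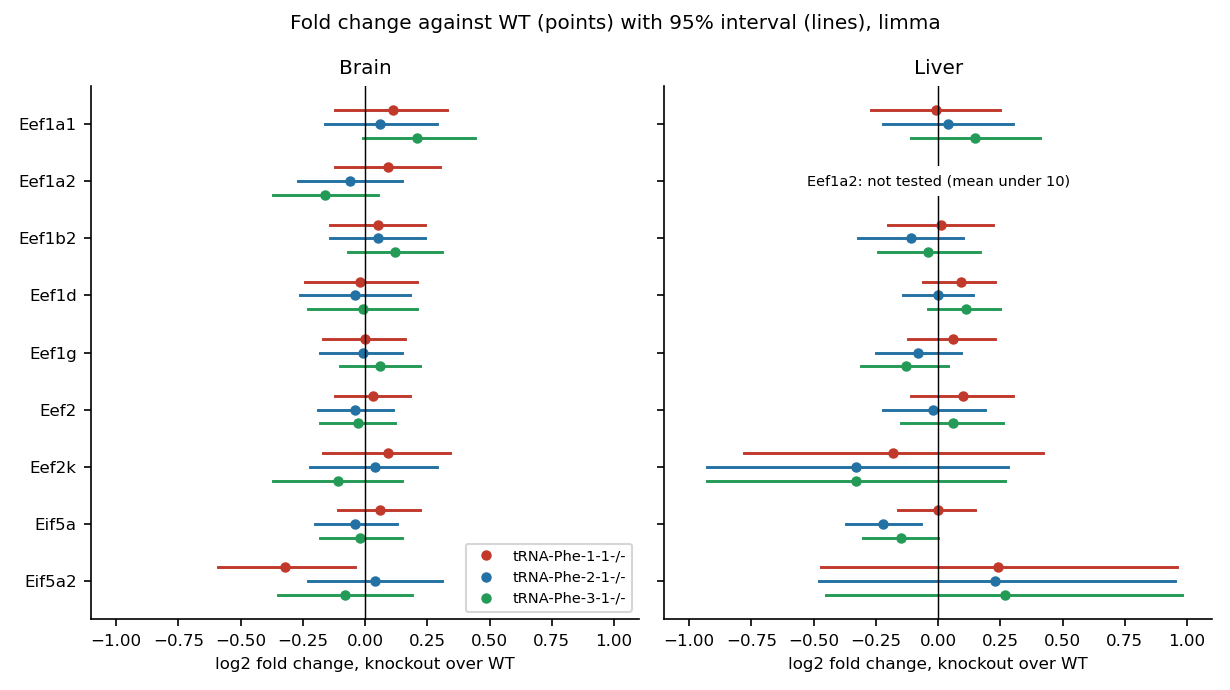
Log2 fold change of each knockout over WT (points) with its 95% interval (lines) from limma, in the brain (left) and liver (right), coloured by line. The intervals of Eif5a2 in tRNA-Phe-1-1-/- brain (-0.59 to -0.04) and of Eif5a in tRNA-Phe-2-1-/- liver (-0.37 to -0.07) leave out 0, before adjustment over all genes, and those of liver Eef2k and Eif5a2 are the widest.

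Whether a knockout acted differently on a member in the brain and the liver was tested in one model of all 24 samples and 14456 genes. The model took brain and liver samples as independent, with one spread per gene for both tissues. The labels do not say whether they came from the same mice. No member passed in limma, the one tool used here, beside 6.94% of all genes for tRNA-Phe-1-1-/-, 0.0346% for tRNA-Phe-2-1-/- and 0.45% for tRNA-Phe-3-1-/-. At an unadjusted p under 0.05 there were 0 members for each line, and 22%, 10.9% and 14.9% of all genes in that order. For Eif5a2 in tRNA-Phe-1-1-/- the effect in the brain minus that in the liver was -0.56 ± 0.30 (adjusted p = 0.298, limma), and for Eif5a in tRNA-Phe-2-1-/- it was 0.18 ± 0.09 (adjusted p = 0.5, limma).

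Genes that act on the elongation factors were described through lists chosen for their roles. In the brain none of them was called in any knockout: of 14 tested modifying enzymes, 7 other cytosolic elongation, termination and recycling factors, 5 mitochondrial elongation factors, 13 regulators of Eef2k and Eef2, and 13 other TOP mRNAs, 0 rose and 0 fell by limma. Of these 52 genes 3, 0 and 5 had an unadjusted p under 0.05 in tRNA-Phe-1-1-/-, in tRNA-Phe-2-1-/- and in tRNA-Phe-3-1-/- brain, where 15.9%, 5.57% and 12.3% of all genes did. The nearest in tRNA-Phe-1-1-/- brain were Eef2kmt, the methyltransferase of Eef2, with 56.1, 49.9 and 51.1 normalised counts against 85.5, 81.4 and 82.4 in WT (log2 fold change -0.66 ± 0.19, adjusted p = 0.123, limma), and Tufm, the mitochondrial counterpart of Eef1a1, with 1573, 1594 and 1581 against 1399, 1363 and 1277 (0.23 ± 0.07, adjusted p = 0.138, limma).

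In tRNA-Phe-1-1-/- liver 9 of these 52 genes were called, about the share over all genes (17.3%). An unadjusted p under 0.05 was found for 19 of the 52, and for 31.8% of all genes. Among the 14 tested modifying enzymes 1 rose and 2 fell. These 3 act in making diphthamide on Eef2, as do 7 of the 14, and no test set them apart. Dph6, the enzyme of the last step, an amidation, had 112, 155 and 105 normalised counts against 219, 224 and 329 in WT. It fell by 1.04 on the log2 scale (SE 0.19, adjusted p = 0.0037, limma). Dph1, which starts the pathway, had 519, 503 and 521 against 724, 630 and 649 (-0.37 ± 0.10, adjusted p = 0.0281, limma), and the methyltransferase Dph5 had 378, 434 and 359 against 241, 313 and 297 (0.46 ± 0.15, adjusted p = 0.0486, limma). In each of the 3 enzymes the groups did not overlap, where 34.8% of all genes did not. Dph6 was also below every WT sample in tRNA-Phe-2-1-/- liver (191, 169 and 190) and tRNA-Phe-3-1-/- liver (163, 153 and 155), where it was not called (adjusted p = 0.288 and 0.109, limma). In these comparisons 25.4% and 19.9% of all genes did not overlap. In tRNA-Phe-3-1-/- brain Dph6 was instead above every WT sample (453, 464 and 428 against 364, 366 and 345). The log2 fold change there was 0.32 ± 0.12 (adjusted p = 0.319, limma), and 16.4% of all genes did not overlap.

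Of 7 other cytosolic factors 3 rose in tRNA-Phe-1-1-/- liver. Etf1, the factor that reads stop codons, had 3849, 3811 and 3600 normalised counts against 2991, 2903 and 2697 in WT (0.39 ± 0.08, adjusted p = 0.0078, limma). The ribosome recycling factor Abce1 rose by 0.28 ± 0.08 and Eef1e1, a part of the multisynthetase complex, by 0.44 ± 0.14 (adjusted p = 0.0347 and 0.0469, limma). Of 13 regulators 2 fell, both of them genes of calmodulin, which activates Eef2k. Calm2 had 2342, 2632 and 2290 against 3230, 3117 and 3330 (-0.42 ± 0.08, adjusted p = 0.00552, limma) and Calm3 1415, 1356 and 1376 against 1704, 1588 and 1666 (-0.26 ± 0.07, adjusted p = 0.0336, limma). Among 13 other TOP mRNAs Hnrnpa1 alone was called (-0.38 ± 0.12, adjusted p = 0.0488, limma), and of 5 mitochondrial factors 0 were, the nearest being Guf1 (-0.27 ± 0.09, adjusted p = 0.0608, limma). Over 23 alternatives Dph6, Etf1 and Calm2 were called in all 23, Dph1 in 16, Abce1 and Calm3 in 12 each, Eef1e1 in 9, Hnrnpa1 in 8 and Dph5 in 6, and no sign changed. The latter 6 each lost the call without WT replicate C, without tRNA-Phe-1-1-/- replicate A or C, and with the replicate block, the highest adjusted p over the alternatives being 0.173, for Eef1e1 and Hnrnpa1. In the livers of both other lines limma called 0 of the 52 genes, with 8 at an unadjusted p under 0.05 for tRNA-Phe-2-1-/- (14.9% of all genes) and 15 for tRNA-Phe-3-1-/- (16.1%).

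In tRNA-Phe-1-1-/- liver the 5 erythroid markers summed to 11566 to 13840 normalised counts, against 19732 to 26031 in WT, and 4 of them fell, while the 9 hepatocyte markers summed to 2726948 to 3198723 against 3377157 to 4137785. The part of these shifts in the list genes was not tested.

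The genes whose levels ran most closely with Eef1a1 over the 12 liver samples were Rps6 (Pearson r = 0.958), Cep250 (0.918) and Eif4b (0.883), out of 6862 genes averaging 500 or more normalised counts. In the brain they were Cnot10 (0.946), Phgdh (0.936) and Zcchc12 (0.925), out of 8856. For Eef2 they were Smim45, Vta1 and Hsd17b4 in the brain (0.898, 0.883 and 0.877) and Exosc4, Nhlrc2 and Slx9 in the liver (0.925, 0.907 and 0.897). For Eef2k they were Gapvd1, Clcn2 and Cdk9 in the brain (0.890, 0.884 and 0.868) and Ddo, Stard5 and Rbp4 in the liver (0.905, 0.881 and 0.877). These are the highest of many values, over samples that share a scaling and 4 genotypes, and are given as a description.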

How the data were processed

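The samples were grouped by tissue, genotype and replicate letter from their titles. Per the methods of the study, the authors trimmed reads (Trim Galore), aligned them with STAR to GRCm38.p6 with GENCODE annotation, quantified them by strand with Salmon with corrections for sequence and GC bias, and summed them with tximport. They divided these estimated counts by DESeq2 size factors in each tissue, and the deposited signal is this normalised count. The division of reads between close copies touches the genes with pseudogenes, and size factors take the bulk of genes as stable. Deposited tables of the authors' own comparisons (mean, fold change, error and s-value) were not used.

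The members and the lists were chosen with earlier results of these data known. Named genes were all members, and from each other list the called genes (at most 5 per comparison) or else that with the lowest adjusted p. Symbols came from GENCODE vM39 and matched 93.2% of the Ensembl identifiers. Genes averaging 10 or more normalised counts were tested as log2(value + 1), a scale that understates changes of low genes, with limma 3.58.1 in R 4.3.3 (variance trend, two-sided, Benjamini-Hochberg over all genes tested). The fit was tested on simulated data. Within each column 100% of values were whole multiples of one step (within 0.1 of a read), and the recovered reads gave the depth and the alternatives in edgeR 4.0.16 and DESeq2 1.42.0. Alternatives also changed the pseudocount, filter, scaling, variance trend, replicate block and samples. Copies were searched with blastn 2.17.0. Of 24 pairs of replicates in one group, 0 agreed within sampling noise.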

Additional observations from a re-analysis of the deposited data

How the results depend on the processing

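The counts of members called were recomputed under 414 alternative values of 17 comparisons, and 411 were unchanged at 0. In the other 3, one member was called, each time Eif5a in the liver: DESeq2 on recovered reads called 1 member in tRNA-Phe-2-1-/- against WT and 1 in tRNA-Phe-1-1-/- against tRNA-Phe-2-1-/-, and a mean of at least 50 called 1 in the latter. The cause was not tested. Leaving out any one replicate gave counts of 0 to 0 in each comparison. With the replicate block, the count was 0 in each comparison as well. Whether the letters pair the samples was not tested. Same-letter correlations ran from -0.164 to 0.492 for brain and from -0.294 to 0.236 for liver, with 7 and 3 of 18 over 0.1. All 3 letters were over 0.1 in 1 comparison alone, tRNA-Phe-2-1-/- with tRNA-Phe-3-1-/- brain (r of 0.132, 0.205 and 0.492). Over all genes, the block took the calls in tRNA-Phe-3-1-/- liver from 140 to 9 and in tRNA-Phe-2-1-/- liver from 21 to 1, while DESeq2 took those in tRNA-Phe-1-1-/- brain from 202 to 874, in tRNA-Phe-3-1-/- brain from 0 to 373 and in tRNA-Phe-2-1-/- liver from 21 to 495. Log2 fold changes took another sign in 48 of 1377 values, none of them called, with main values of at most 0.27 in size. Quantile or trimmed-mean scaling moved the median of all genes by no more than 0.024. Depth limits Eif5a2 in the liver (14 to 34 reads) and Eef1a2 there (0 to 2 reads).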
